A study of Mus musculus with 19 samples.

Results

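The 38 genes described here are markers and effectors of cell division, matched by gene name, with no measured value in the rule that took them. Earlier results of these data were known when they were chosen. They comprised 12 S phase genes, 23 mitosis genes and 3 transcription factors that regulate such genes, of 55414 genes in the files. Of the genes listed under mitosis, Ccna2, Mki67 and Top2a are also made in S phase. All 38 genes passed the filter on low counts, among 17617 genes that did so.

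The RNA-seq libraries came from abdominal aortas of male Apoe-/- mice on a C57BL/6J background, which lack apolipoprotein E and develop aortic aneurysm under angiotensin II (AngII). Every mouse, controls included, received AngII at 1000 ng/kg/min from a subcutaneous osmotic pump implanted at 8 to 10 weeks of age. D+1 IR mice (n = 7) received total-body X-rays at 1 Gy 1 day after the start of infusion. D-3 IR mice (n = 7) received the same 1 Gy 3 days before it. Non-irradiated control mice (n = 5) received the same ketamine and xylazine anesthesia and no irradiation. Total-body irradiation also reaches bone marrow and blood cells, so the groups do not isolate an exposure of the vessel wall. The day on which the sequenced aortas were taken is not given in the sources used here. Each library was taken as a separate mouse, and the p-values measure the spread between these mice.

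Cells that divide first license their replication origins and copy their DNA in S phase, then condense and segregate the chromosomes in mitosis and part in cytokinesis. In mammals, S phase genes are switched on by E2F transcription factors, and mitosis genes later by the MuvB complex with B-Myb (Mybl2) and then FoxM1. MuvB reaches many mitosis genes through CHR elements and through CCAAT boxes bound by NF-Y. Most medial smooth muscle cells of a healthy adult aorta are quiescent, and AngII infusion is known to be followed by division of macrophages, fibroblasts and smooth muscle cells in the wall. In a whole aorta, fewer cells of a dividing type and less RNA per cell cannot be told apart.

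The promoters of 5 genes described by library below are shown so that the motifs counted in them can be read. Each runs from 250 bases before to 50 bases after the gene start that RefSeq gives, 5′ to 3′ on the strand of the gene, in RefSeq's GRCm38.p6. Capitals mark matches on either strand to a CHR element (TTTGAA or TTCGAA), to an E2F core (TTCCCGC, its variant TTCGCGC, its variant TTGCCGC or its variant TTGGCGC) or to CCAAT, and matches of different motifs can overlap.
Prc1, chr7:80294201-80294500, + strand: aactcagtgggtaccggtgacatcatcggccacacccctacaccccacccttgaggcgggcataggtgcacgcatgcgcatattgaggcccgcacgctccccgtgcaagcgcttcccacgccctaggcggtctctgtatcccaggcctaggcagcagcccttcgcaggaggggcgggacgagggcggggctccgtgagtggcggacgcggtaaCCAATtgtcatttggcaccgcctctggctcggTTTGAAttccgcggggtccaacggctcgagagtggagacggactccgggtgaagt
Bub1, chr2:127831810-127832109, - strand: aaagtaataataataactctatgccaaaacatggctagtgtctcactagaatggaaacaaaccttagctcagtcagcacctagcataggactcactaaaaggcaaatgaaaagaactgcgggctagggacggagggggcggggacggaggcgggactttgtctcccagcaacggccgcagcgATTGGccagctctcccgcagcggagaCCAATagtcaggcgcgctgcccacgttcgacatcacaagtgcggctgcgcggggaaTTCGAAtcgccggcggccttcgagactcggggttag
Mki67, chr7:135716330-135716629, - strand: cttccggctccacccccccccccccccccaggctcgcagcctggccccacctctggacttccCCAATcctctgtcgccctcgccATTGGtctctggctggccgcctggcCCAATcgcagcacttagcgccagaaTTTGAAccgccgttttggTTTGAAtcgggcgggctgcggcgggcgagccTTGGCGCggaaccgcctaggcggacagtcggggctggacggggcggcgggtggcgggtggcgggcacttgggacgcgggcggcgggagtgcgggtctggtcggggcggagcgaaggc
Mcm6, chr1:128359656-128359955, - strand: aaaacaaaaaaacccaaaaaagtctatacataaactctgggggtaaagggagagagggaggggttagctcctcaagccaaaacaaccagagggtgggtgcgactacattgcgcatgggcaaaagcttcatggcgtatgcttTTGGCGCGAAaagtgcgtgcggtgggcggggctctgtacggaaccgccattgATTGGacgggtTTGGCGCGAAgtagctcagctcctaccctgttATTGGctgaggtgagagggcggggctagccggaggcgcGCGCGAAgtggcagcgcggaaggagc
Pcna, chr2:132253131-132253430, - strand: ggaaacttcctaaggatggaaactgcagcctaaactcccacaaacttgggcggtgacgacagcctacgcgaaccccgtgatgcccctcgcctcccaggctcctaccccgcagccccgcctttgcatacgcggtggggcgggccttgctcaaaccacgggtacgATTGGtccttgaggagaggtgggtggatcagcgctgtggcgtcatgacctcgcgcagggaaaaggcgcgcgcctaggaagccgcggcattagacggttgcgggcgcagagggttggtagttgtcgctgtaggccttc

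The Prc1 promoter held 1 CHR element, 5 bases before the start, and 1 CCAAT box 37 bases before it. The Bub1 promoter held 1 CHR element, 14 bases after the start, with 2 CCAAT boxes upstream. The Mki67 promoter held 2 CHR elements, 3 CCAAT boxes and 1 E2F core. The Mcm6 promoter held no CHR element in this window, 5 E2F cores and 2 CCAAT boxes, and the Pcna window held only 1 CCAAT box.

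Promoters were found for 31 of the 38 genes, of which 19 were mitosis genes, 10 S phase genes and 2 regulators. A CHR element together with a CCAAT box was present in 15 of 19 mitosis promoters (78.9%) and in 2 of 10 S phase promoters (20%), against 7.70% of all 27025 promoters of the same length. CHR elements on their own stood in the same 15 mitosis promoters, in 2 S phase promoters and in 19.4% of all promoters. An E2F core stood in 3 mitosis promoters (15.8%), in 5 S phase promoters (50%) and in 9.69% of all promoters. CCAAT boxes were frequent in both lists, in 17 mitosis promoters (89.5%) and 7 S phase promoters (70%), against 37.9% of all promoters. Neither regulator window, of E2f1 and Mybl2, held any of the motifs in the exact forms scanned. Other forms of an E2F site were not looked for, so a missing match does not show that a site is absent. RefSeq's start lay inside the gene as GENCODE gives it, by 134 bases for Pcna, 109 bases for Cenpa and over 250 bases for E2f1 and Mcm7, so the windows of E2f1 and Mcm7 lie wholly in the gene body of that annotation. For the other 27 genes both starts lay within 100 bases of each other. A match is a run of letters and was not shown to be a bound site.

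Levels between genes were compared as counts scaled to a common library size with TMM factors (CPM) and divided by the kb of exon. They were averaged over the 19 libraries with their SD. The kb of exon joined the exons of all annotated transcripts of a gene, so the order of genes depends in part on the annotation. Mcm2 and Mcm5 both had 13.3 CPM, with 6956 and 3993 bases of exon. Among the S phase genes, Pcna, the clamp that holds DNA polymerase on the template and also serves in DNA repair, stood highest at 21.3 ± 5.05 CPM per kb. The subunits of the replicative MCM helicase followed, with Mcm6 at 9.95 ± 4.25, Mcm7 at 4.62 ± 1.30, Mcm3 at 4.51 ± 2.01, Mcm4 at 4.29 ± 1.31, Mcm5 at 3.34 ± 1.66 and Mcm2 at 1.91 ± 0.69 CPM per kb. The enzymes of nucleotide supply had 4.03 ± 2.37 CPM per kb for Rrm2, a subunit of ribonucleotide reductase, 2.17 ± 1.17 for Tk1, thymidine kinase, and 1.65 ± 0.80 for Tyms, thymidylate synthase. The E cyclins, which drive entry into S phase with Cdk2, had 1.83 ± 0.54 CPM per kb for Ccne1 and 1.19 ± 0.48 for Ccne2.

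Among the mitosis genes, the highest levels were those of Cdc20 (7.90 ± 5.33 CPM per kb) and Ube2c (5.76 ± 4.01), which serve the anaphase-promoting ubiquitin ligase, and of Ccnb2 (5.93 ± 3.52), a B cyclin. Cdk1, the kinase of mitotic entry, had 2.56 ± 1.85 CPM per kb, with its cyclins Ccna2 at 3.15 ± 2.12 and Ccnb1 at 1.72 ± 1.16. The joined table pairs Ccnb1 with 3 Entrez identifiers, and its count is uncertain where copies of the gene share reads. The mitotic kinases had 3.73 ± 2.85 CPM per kb for Plk1, 3.01 ± 1.81 for Aurka and 2.08 ± 1.25 for Aurkb, and Birc5, the survivin subunit that works with Aurkb, had 2.42 ± 2.24.

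The chromosome-bound Top2a, a topoisomerase, and Mki67, which coats mitotic chromosomes, had 3.44 ± 2.25 and 2.81 ± 1.84 CPM per kb. The centromere genes ranged from 2.48 ± 1.34 for Cenpa, the centromeric histone, through 0.72 ± 0.48 for Cenpe, a kinetochore motor, to 0.59 ± 0.41 for Cenpf. The spindle checkpoint proteins Bub1b and Bub1 had 2.00 ± 1.04 and 0.73 ± 0.49. The spindle genes had 3.90 ± 2.49 for Tpx2, 1.72 ± 1.02 for Nusap1, 1.36 ± 1.03 for Kif20a, 1.35 ± 1.02 for Prc1, 1.09 ± 0.73 for Kif11 and 1.09 ± 0.61 for Kif23. The regulators had 3.56 ± 1.46 for E2f1, 1.73 ± 1.15 for Foxm1 and 0.40 ± 0.21 for Mybl2, the lowest level among the 38 genes.

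The mitosis genes spread more widely between mice than the S phase genes. The highest library stood above the lowest by a median of 15.4-fold for the mitosis genes, from 7.69-fold for Cenpa to 46.1-fold for Birc5. For the S phase genes the median was 4.98-fold, from 2.23-fold for Pcna to 9.50-fold for Rrm2. Over the 15579 tested genes with a count in every library it was 3.80-fold. Tested genes at 0 in some library have no such ratio, so this median leaves them out. The biological coefficient of variation, edgeR's estimate of the spread between mice of a group, had a median of 0.68 for the mitosis genes and 0.40 for the S phase genes, against 0.41 for all genes tested. Between 18 and 5193 reads were counted per member gene and library, so that the counting error was small beside this spread.

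**Figure D1:**
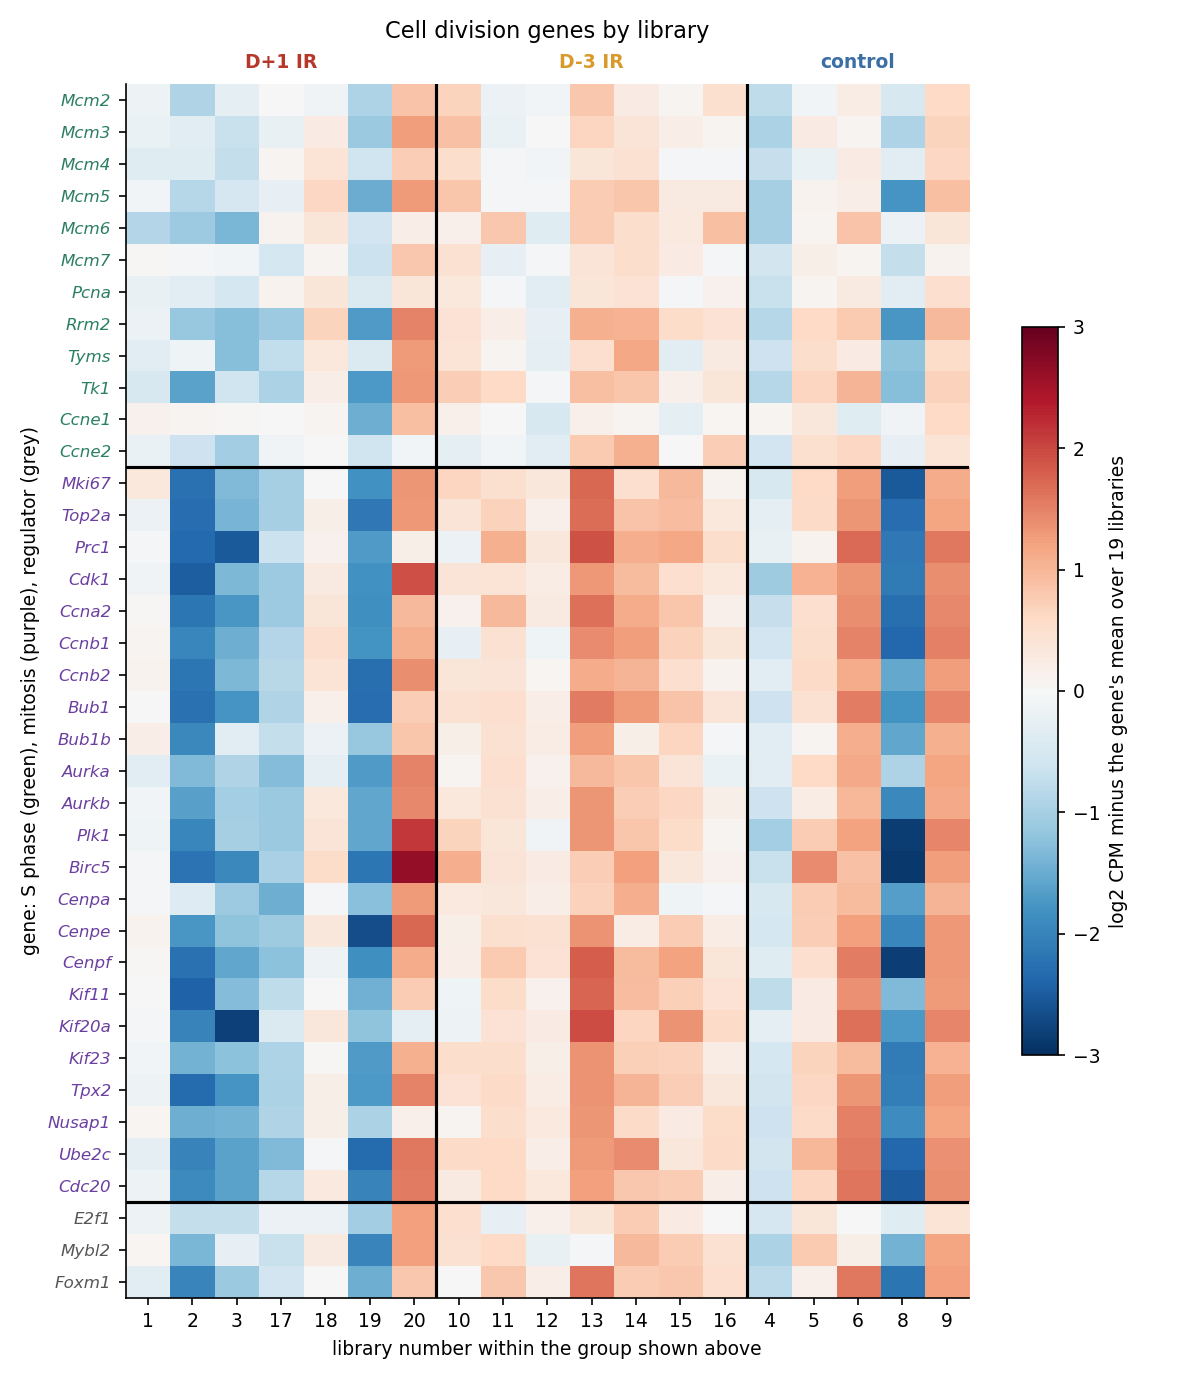
Log2 CPM of the 38 genes (rows, by list) in the 19 libraries (columns, by group) as colour, each gene after subtraction of its own mean over the libraries. D+1 IR library 20 and D-3 IR library 13 had the highest values for 21 and 11 genes, and control library 8 the lowest for 17.

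To compare S phase with mitosis in each aorta, the log2 CPM (prior count 2) were averaged over the 12 and the 23 genes. The mitosis mean was 1.01 at the lowest, 1.96 at the median and 4.14 at the highest in D+1 IR, against 3.14, 3.48 and 4.32 in D-3 IR. The 5 controls had 2.39, 3.52, 4.24, 0.90 and 4.22. Hence 6 of 7 D+1 IR aortas lay below every D-3 IR aorta, all but library 20, while the controls covered nearly the whole range.

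The S phase mean covered a narrower range. It was 2.71, 3.39 and 4.54 at the lowest, median and highest in D+1 IR, and 3.49, 3.98 and 4.31 in D-3 IR. The controls had 2.99, 3.93, 4.03, 2.91 and 4.26. Of the 7 D+1 IR aortas, 5 lay below every D-3 IR aorta, and libraries 18 and 20 did not. From the lowest to the highest of the 19 libraries the S phase mean covered 1.83 and the mitosis mean 3.43 on the log2 scale. Across libraries the S phase mean stood 0.44 higher per unit of the mitosis mean, and r of the 2 means was 0.91 over the 19 libraries, which is a description since both share each library's depth and composition.

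The mitosis mean minus the S phase mean was -1.19 ± 0.61 in D+1 IR (SD, n = 7), -0.42 ± 0.33 in D-3 IR (SD, n = 7) and -0.57 ± 0.86 in controls (SD, n = 5). It ran between -2.06 and -0.40 in D+1 IR, between -0.90 and 0.02 in D-3 IR and between -2.02 and 0.21 in controls, so all 3 groups overlapped. The D+1 IR libraries 1, 2 and 3 carry another series number in their file names, which the sources used here do not explain. No D-3 IR or control library carries that number. For these libraries the series number and the group therefore cannot be told apart in either comparison of D+1 IR. The difference averaged -1.37 ± 0.77 in the D+1 IR libraries 1, 2 and 3, beside -1.05 ± 0.53 in the D+1 IR libraries 17 to 20. The S phase and mitosis means were 3.17 and 1.80 in libraries 1 to 3, and 3.65 and 2.60 in libraries 17 to 20. The scores over the members were given no p-value.

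**Figure D2:**
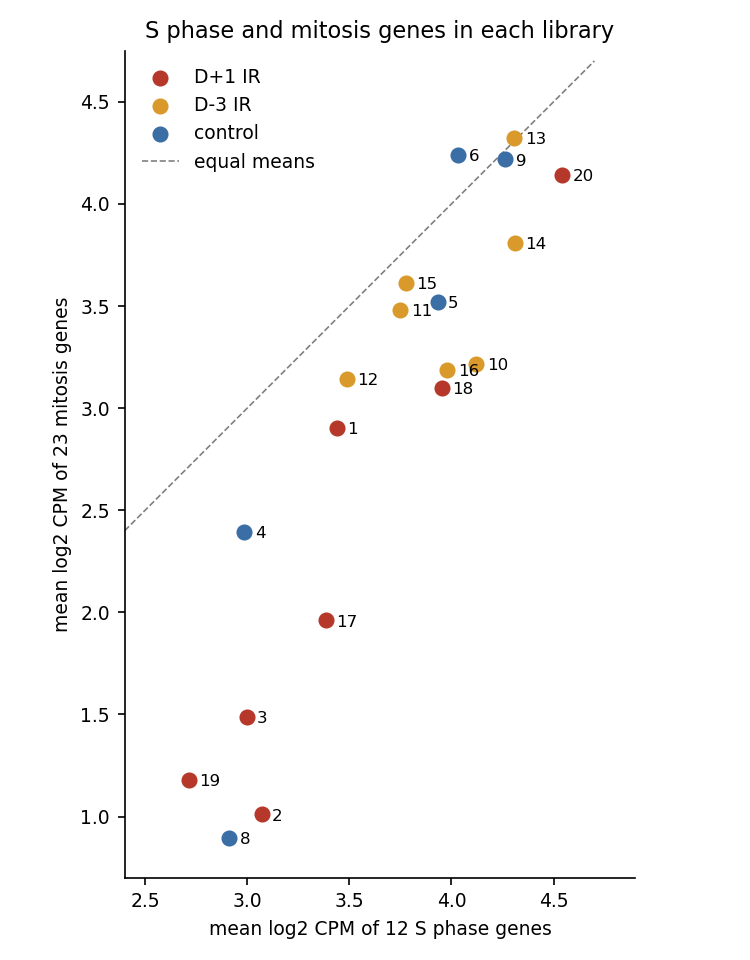
Mean log2 CPM of the 12 S phase genes (horizontal) and of the 23 mitosis genes (vertical) in each library, numbered and coloured by group, with a dashed line where both are equal. D+1 IR libraries other than 20 lie at mitosis means of 1.01 to 3.10, below the 3.14 to 4.32 of the D-3 IR libraries, and control 8 lies lowest at 0.90.

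Values by library show the same spread in single genes. Mki67 (chromosome 7 of GRCm38, 135689784 to 135716361) had 4.52, 10.7 and 53.9 CPM at the lowest, median and highest in D+1 IR and 23.0, 30.3 and 70.8 CPM in D-3 IR. In controls Mki67 had 15.3, 32.4, 51.1, 3.70 and 46.4 CPM. The highest D+1 IR value was that of library 20, and library 1 also reached into the D-3 IR range. Top2a (chromosome 11, 98992943 to 99024189) had 4.82, 11.7 and 57.6 CPM in D+1 IR and 26.1, 37.8 and 74.6 CPM in D-3 IR. The controls had 19.0, 35.0, 58.0, 4.81 and 53.0 CPM of Top2a. Library 20 again led its group, D-3 IR 13 had the highest value and control 8 the lowest.

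Prc1 (chromosome 7, 80294450 to 80316259), which bundles the microtubules of the central spindle, had 1.38, 5.04 and 8.94 CPM in D+1 IR and 7.03, 16.7 and 29.5 CPM in D-3 IR. Its controls had 6.82, 8.49, 25.8, 1.79 and 23.9 CPM. Kif20a (chromosome 18, 34624613 to 34633277), a kinesin of cytokinesis, had 0.622, 3.20 and 5.52 CPM in D+1 IR and 3.91, 6.47 and 16.9 CPM in D-3 IR. The controls had 3.54, 5.20, 13.8, 1.33 and 12.0 CPM of Kif20a. For both genes D+1 IR overlapped D-3 IR only at its upper end, and control 8 lay among the lowest D+1 IR aortas while controls 6 and 9 lay above all of them. Bub1 (chromosome 2, 127801122 to 127831865), a kinase of the spindle checkpoint, had 0.485, 1.27 and 3.95 CPM in D+1 IR and 2.72, 3.38 and 6.96 CPM in D-3 IR. In controls Bub1 had 1.55, 3.24, 6.91, 0.678 and 6.55 CPM. All D+1 IR aortas but library 20 lay below the D-3 IR group.

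Among the S phase genes, Mcm6 (chromosome 1, 128331590 to 128359664) had 16.3, 28.1 and 53.8 CPM in D+1 IR and 32.5, 60.9 and 78.9 CPM in D-3 IR. The controls had 21.2, 44.5, 75.4, 37.3 and 54.4 CPM of Mcm6. The D+1 IR libraries 1, 2, 3 and 19 lay below the D-3 IR group and the other 3 within it. Ccne2 (chromosome 4, 11191351 to 11204779) had 1.90, 3.38 and 3.94 CPM in D+1 IR and 3.12, 3.94 and 8.13 CPM in D-3 IR. In controls Ccne2 had 2.62, 5.41, 6.00, 3.27 and 5.17 CPM. The D+1 IR libraries 1, 17, 18 and 20 lay inside the D-3 IR range, in its lower part, and libraries 2, 3 and 19 below it.

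Pcna (chromosome 2, 132249162 to 132253314) had 34.7, 42.4 and 63.8 CPM in D+1 IR and 39.4, 54.1 and 67.0 CPM in D-3 IR. Its controls had 31.4, 52.5, 59.9, 40.3 and 70.2 CPM. The ranges of the 3 groups nearly coincided. Mcm2 (chromosome 6, 88883474 to 88898780) had 6.50, 11.2 and 22.5 CPM in D+1 IR and 11.0, 14.7 and 21.6 CPM in D-3 IR, and the controls had 7.29, 11.8, 14.4, 8.94 and 18.8 CPM. Library 20 had the highest Mcm2 value of all, and the remaining D+1 IR aortas lay below the median of D-3 IR.

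**Figure D3:**
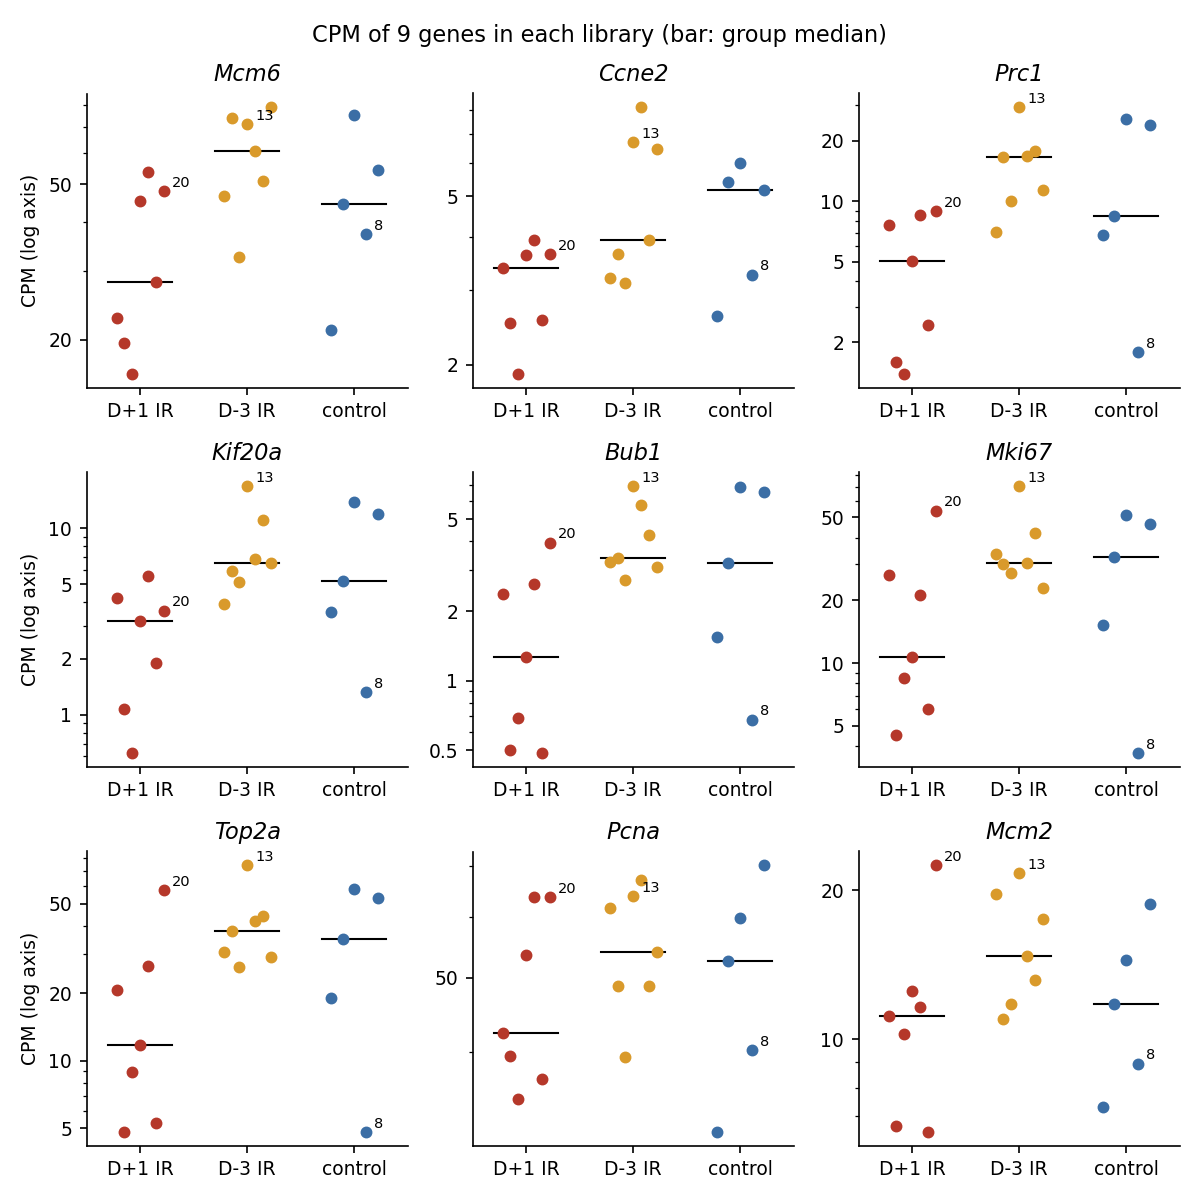
CPM of 9 genes (log axis) in each library of D+1 IR, D-3 IR and control, with bars at the group medians and the libraries D+1 IR 20, D-3 IR 13 and control 8 labelled. The medians of Mki67 are 10.7, 30.3 and 32.4 CPM and those of Pcna 42.4, 54.1 and 52.5 CPM.

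Between the irradiated groups, 37 of the 38 genes had a lower fitted level in D+1 IR than D-3 IR aortas, namely all 23 mitosis genes, 11 of 12 S phase genes and the 3 regulators. None passed edgeR's quasi-likelihood F-test after Benjamini-Hochberg adjustment (smallest adjusted p = 0.409, with 0.0% of all 17617 genes passing). At an unadjusted p under 0.05, 10 members were lower (Mcm6, Ccne2, 7 mitosis genes and Foxm1), where 6.71% of all genes were lower at that level and 2018 genes differed in either direction. The median log2 fold change was -0.91 for the mitosis genes, -0.35 for the S phase genes and -0.54 for the regulators, against 0.04 for all genes. Most of the 38 genes vary together over the libraries. The number sharing a direction, here and below, is therefore not a count of independent results. DESeq2 called none of the members (smallest adjusted p = 0.133) and 56 genes in all. Limma voom with sample quality weights, which gives less weight to libraries that stand apart, called 16 members lower (smallest adjusted p = 0.0243), namely Mcm6, Tk1, 13 mitosis genes and Foxm1, where it called 2298 genes, or 13.0% of all, in either direction.

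The mitosis genes of smallest p in D+1 IR against D-3 IR belong to the central spindle, the spindle checkpoint and spindle assembly. Prc1 had a log2 fold change of -1.62 (SE 0.54, adjusted p = 0.409 in edgeR's test). Kif20a had -1.47 (SE 0.52, adjusted p = 0.409) and Bub1 -1.31 (SE 0.53, adjusted p = 0.417). Nusap1, a microtubule-binding spindle protein, had -1.03 (SE 0.42, adjusted p = 0.419), and Kif11, the motor that pushes the spindle poles apart, -1.16 (SE 0.48, adjusted p = 0.421). Among the S phase genes Mcm6 had -0.83 (SE 0.30, adjusted p = 0.409), Ccne2 -0.71 (SE 0.27, adjusted p = 0.417) and Tk1 -0.74 (SE 0.44, adjusted p = 0.488). Ccne1 was the only member with a higher fitted level in D+1 IR, by 0.13 (SE 0.25). The lower mitosis values were smallest in size for Birc5, at -0.16 (SE 0.71, 95% interval -1.54 to 1.23), and Plk1, at -0.39 (SE 0.62, 95% interval -1.61 to 0.83).

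These values moved with single libraries. Without D+1 IR 20, all 38 genes were lower than in D-3 IR and 33 had an unadjusted p under 0.05, all 23 mitosis genes among them and 7 of 12 S phase genes, where 6.9% of all genes did, still with none passing adjustment (smallest adjusted p = 0.329). The medians were then -1.41 for mitosis and -0.68 for S phase. Without D-3 IR 13, 4 members were lower with an unadjusted p under 0.05, where 6.0% of all genes were. Without D+1 IR 3 or D+1 IR 19, 6 members were, where 4.86% and 6.74% of all genes were. Without the D+1 IR libraries 1, 2 and 3, 34 members were lower, 1 with an unadjusted p under 0.05 (2.63% of the members, where 2.15% of all genes were), and the medians were -0.56 for mitosis and -0.11 for S phase (smallest adjusted p = 0.979).

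Against the non-irradiated control, D+1 IR had lower fitted levels for 35 of the 38 genes, with all 23 mitosis genes, 9 of 12 S phase genes and the 3 regulators. None passed adjustment in edgeR's quasi-likelihood test (smallest adjusted p = 0.644, 0.0% of all genes), in DESeq2 (2 of all genes) or in voom (0 of all genes). At an unadjusted p under 0.05, 3 mitosis genes were lower, where 4.84% of all genes were and 1253 genes differed in either direction. The median log2 fold change was -0.77 for the mitosis genes and -0.07 for the S phase genes, against -0.04 for all genes.

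Those 3 genes were Prc1 at -1.39 (SE 0.57), Kif20a at -1.31 (SE 0.55) and Nusap1 at -1.05 (SE 0.45), each with an adjusted p of 0.644 in edgeR's test. Bub1 had -1.16 (SE 0.57) and Kif11 -0.94 (SE 0.52), with the same adjusted p. The S phase genes of smallest p were Ccne2 at -0.54 (SE 0.29), Mcm6 at -0.48 (SE 0.33) and Tk1 at -0.49 (SE 0.47). Pcna had -0.09 (SE 0.21, 95% interval -0.50 to 0.32), and Mcm2 -0.08 (SE 0.29, 95% interval -0.66 to 0.50).

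Without D+1 IR 20, 25 members had an unadjusted p under 0.05 and a lower level than in control, 22 of them mitosis genes and 1 an S phase gene, where 5.42% of all genes did (smallest adjusted p = 0.502). The medians were then -1.34 for mitosis and -0.31 for S phase. Without control 8 there were 11 such members, where 4.3% of all genes were, and without control 4 there were 7, where 7.93% were. Without D+1 IR 2 or 19 there was 1 such member (3.53% and 5.15% of all genes), and without control 6 or 9 there were none (1.39% and 4.4% of all genes). Without the D+1 IR libraries 1, 2 and 3 there were none (0.919% of all genes), with medians of -0.40 for mitosis and 0.14 for S phase.

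Between D-3 IR and the non-irradiated control the differences were small beside their errors. Fitted levels were higher in D-3 IR for 31 of the 38 genes, 17 of 23 mitosis genes, 11 of 12 S phase genes and the 3 regulators. None passed adjustment (adjusted p = 1.00 for every member in edgeR's test, 0.0% of all genes, and 0 genes in DESeq2 and voom), and none had an unadjusted p under 0.05, where 1.32% of all genes, 232, did. The median log2 fold change was 0.12 for mitosis and 0.28 for S phase, against -0.03 for all genes.

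The S phase genes of smallest p were Mcm5 at 0.49 (SE 0.45), Mcm2 at 0.35 (SE 0.30) and Mcm7 at 0.34 (SE 0.23). The mitosis genes of smallest p were Mki67 at 0.30 (SE 0.60), Cenpf at 0.29 (SE 0.61), Kif23, a kinesin of cytokinesis, at 0.27 (SE 0.49), Aurkb at 0.27 (SE 0.54) and Kif11 at 0.23 (SE 0.52). The direction of the mitosis genes rested on 1 aorta in either group. Without control 8, 20 of 23 mitosis genes were lower in D-3 IR (median -0.12), and without D-3 IR 13, 14 of 23 were lower (median -0.05). The S phase median kept its sign, at 0.10 without control 8 and 0.23 without D-3 IR 13. The comparisons of D+1 IR and of D-3 IR with control share the 5 control aortas and are not independent of each other.

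**Figure D4:**
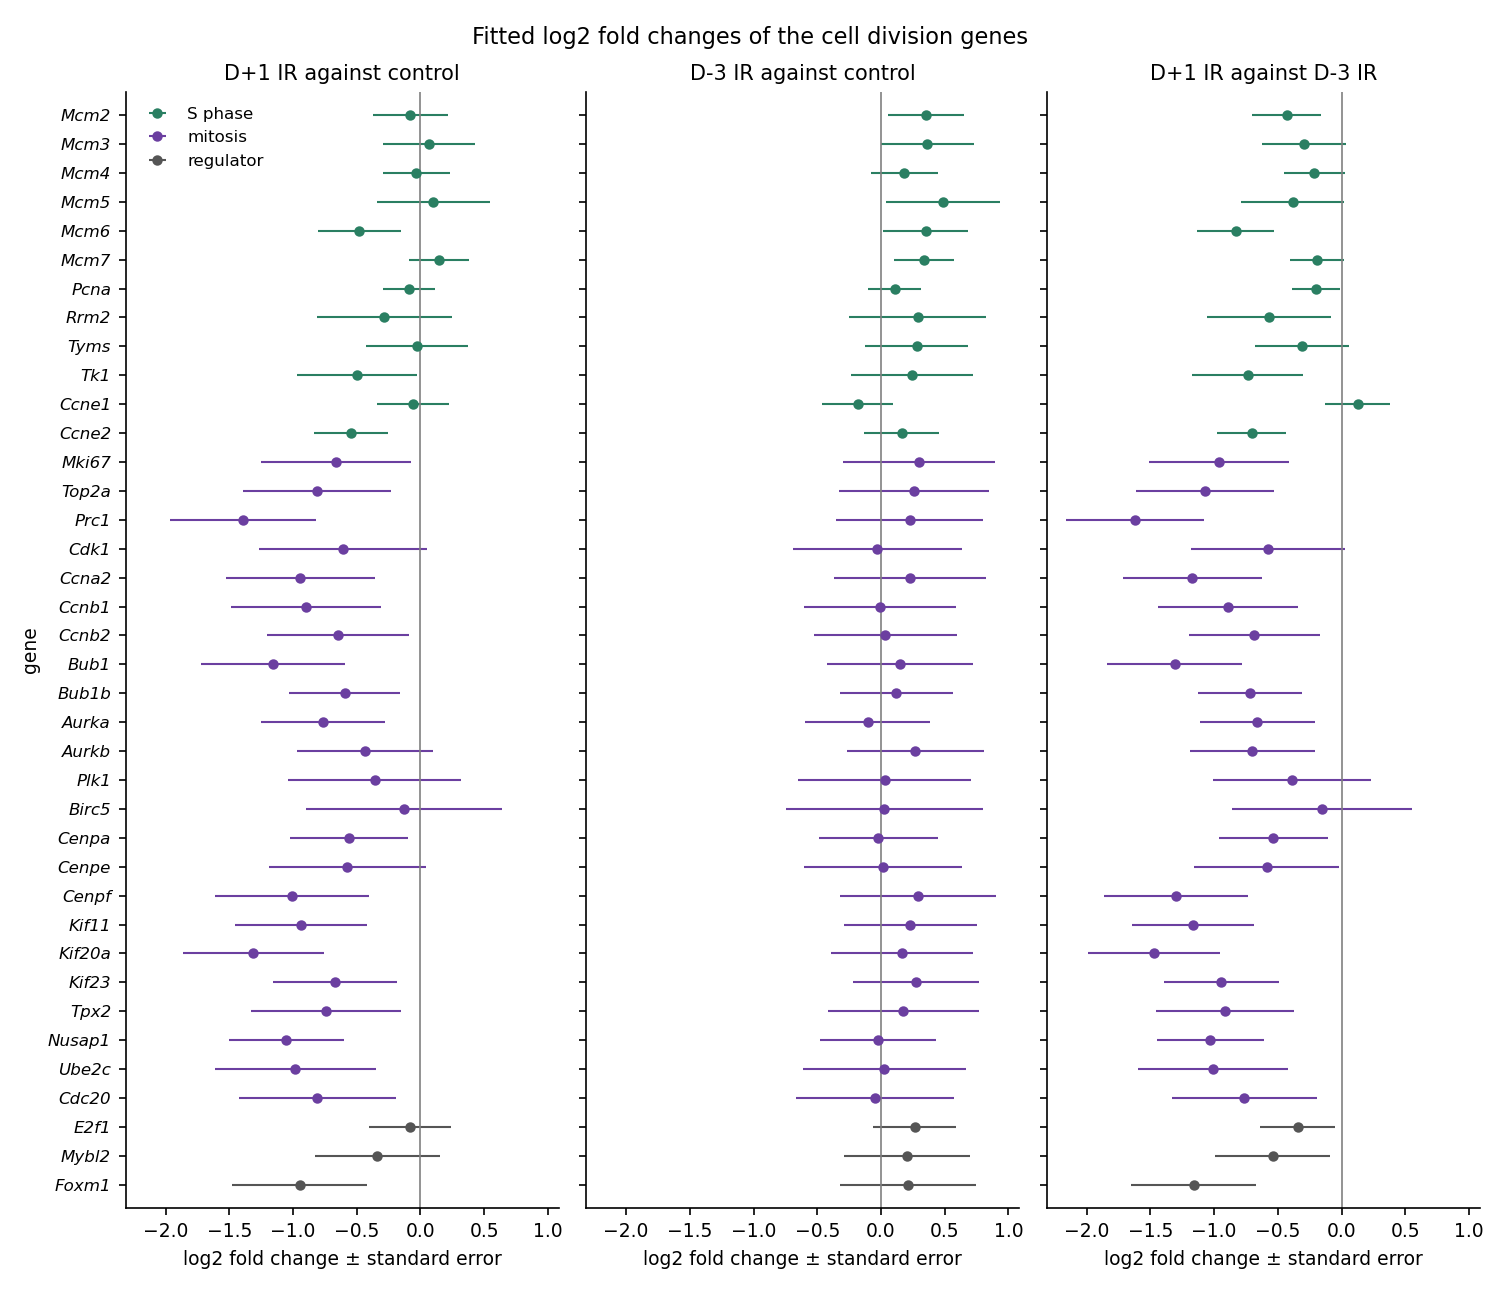
Log2 fold change (horizontal) with its standard error for each of the 38 genes, for D+1 IR set against control on the left, D-3 IR set against control in the middle, and D+1 IR set against D-3 IR on the right. In D+1 IR against D-3 IR the mitosis genes run between -1.62 and -0.16 and the S phase genes between -0.83 and 0.13.

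Tested for any difference among the 3 groups, no member passed (smallest adjusted p = 0.726 in edgeR's test, 0.0% of all genes), and 5 had an unadjusted p under 0.05, where 6.65% of all genes did. That count was 24 without D+1 IR 20, where 8.46% of all genes did, and 9 without control 8, where 6.06% did. It was 1 without D-3 IR 13 (5.2% of all genes) and 1 without D+1 IR 2, 3 or 19 (3.94%, 4.31% and 6.15% of all genes). DESeq2 and voom also called no member in this test, and 23 and 0 genes in all.

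The regulators were read by their own transcripts only. Foxm1, the forkhead factor of mitosis genes, had 1.96, 5.18 and 13.6 CPM at the lowest, median and highest in D+1 IR and 7.66, 13.1 and 23.8 CPM in D-3 IR. Its controls had 4.49, 8.62, 23.3, 1.70 and 18.3 CPM. All D+1 IR aortas but library 20 lay below the D-3 IR group, as for Bub1. The log2 fold change of Foxm1 was -1.16 in D+1 IR against D-3 IR (SE 0.49, adjusted p = 0.421 in edgeR's test), -0.95 in D+1 IR against control (SE 0.53, adjusted p = 0.644) and 0.21 in D-3 IR against control (SE 0.53, adjusted p = 1.00).

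E2f1, a factor of S phase entry, had 5.09, 9.27 and 24.7 CPM in D+1 IR and 8.89, 12.5 and 17.7 CPM in D-3 IR, and 7.33, 13.4, 10.6, 8.20 and 13.8 CPM in controls. Mybl2 had 0.397, 1.31 and 3.65 CPM in D+1 IR and 1.34, 2.14 and 3.05 CPM in D-3 IR, and 0.81, 2.68, 1.76, 0.586 and 3.58 CPM in controls. D+1 IR 20 had the highest value of both genes among all 19 aortas. In D+1 IR against D-3 IR the log2 fold change was -0.34 for E2f1 (SE 0.29, adjusted p = 0.641 in edgeR's test) and -0.54 for Mybl2 (SE 0.45, adjusted p = 0.633). Against control the D+1 IR values were -0.08 for E2f1 (SE 0.32) and -0.34 for Mybl2 (SE 0.49), and the D-3 IR values 0.26 (SE 0.32) and 0.20 (SE 0.50).

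Other genes of the cell cycle, in lists drawn up by their known roles with earlier results of these data known, were set beside the 38. Of 32 other mitosis genes, 31 had lower fitted levels in D+1 IR than D-3 IR aortas, 10 with an unadjusted p under 0.05, where 6.71% of all genes were lower at that level, and the median log2 fold change was -0.70. Of 30 other replication genes, 23 were lower, 3 with an unadjusted p under 0.05, which is near that share, and the median was -0.18. Of 25 genes of G1 and cell cycle control, 16 were lower, 3 with an unadjusted p under 0.05 beside 1 that was higher, and the median was -0.14. None of these genes passed adjustment.

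Against control, 31 of 32 other mitosis genes (median -0.66) and 15 of 30 other replication genes (median 0.00) were lower in D+1 IR, with 4 and 0 at an unadjusted p under 0.05, where 4.84% of all genes were lower. Between D-3 IR and control, 21 of 32 other mitosis genes, 24 of 30 other replication genes and 17 of 25 control genes were higher in D-3 IR, none with an unadjusted p under 0.05.

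Anln, anillin of the cytokinetic furrow, averaged 21.9 ± 13.9 CPM in D+1 IR (SD, n = 7), 66.0 ± 30.1 CPM in D-3 IR (SD, n = 7) and 61.3 ± 42.1 CPM in controls (SD, n = 5). Its log2 fold change in D+1 IR against D-3 IR was -1.59 (SE 0.47, adjusted p = 0.409 in edgeR's test), close to that of Prc1. Pbk, a mitotic kinase, had -1.61 (SE 0.57) and Cdc25b, a phosphatase that activates Cdk1, -0.54 (SE 0.21). Of the replication genes, Prim1, the DNA primase subunit, had -0.48 (SE 0.20), Pola1, the catalytic subunit of DNA polymerase alpha, -0.55 (SE 0.24) and Clspn, claspin of the replication checkpoint, -1.07 (SE 0.50).

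Of the control genes, Rbl1, the retinoblastoma relative p107, had -0.57 (SE 0.19, adjusted p = 0.409) and Ccnd2, a D cyclin, -0.59 (SE 0.21). Myc went the other way, at 1.56 (SE 0.57), with 26.6 ± 28.3 CPM in D+1 IR, 9.04 ± 3.35 CPM in D-3 IR aortas and 13.2 ± 12.2 CPM in controls. Cdkn1a, the p21 inhibitor that p53 induces after irradiation, averaged 129 ± 50.6 CPM in D+1 IR, 124 ± 28.8 CPM in D-3 IR aortas and 107 ± 51.0 CPM in controls. Its log2 fold change in D+1 IR against D-3 IR was 0.06 (SE 0.28, adjusted p = 0.945 in edgeR's test).

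The 37 other members were correlated with Mki67 over the 19 libraries on log2 CPM. The 22 other mitosis genes followed Mki67 closely, with a median Pearson r of 0.96 (0.86 for Cenpa to 0.99 for Top2a) and Spearman rho of 0.78 to 0.98. The S phase genes followed it less closely, with a median r of 0.73, from 0.41 for Ccne1 to 0.92 for Rrm2, and rho of 0.44 to 0.91. In a two-sided permutation test with 100000 resamples, in which 1e-05 is the smallest p that can be given, all 22 mitosis genes, 11 of 12 S phase genes and the 3 regulators had a positive r at an unadjusted p under 0.05, where 9.0% of all 17616 other genes tested did. After Benjamini-Hochberg adjustment over all those genes, the 22 mitosis genes, 9 S phase genes and 3 regulators passed, and 2.05% of all genes.

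Top2a had r = 0.99 (p = 1e-05) and rho = 0.97 (p = 1e-05), and Rrm2 had r = 0.92 (p = 1e-05) and rho = 0.89 (p = 1e-05), all by permutation tests. Ccne1 had r = 0.41 (permutation p = 0.0823) and rho = 0.44 (permutation p = 0.0637), which did not reach an unadjusted p under 0.05. Without the 2 libraries farthest from the median of Mki67, D+1 IR 2 and control 8, r was 0.81 to 0.98 for the mitosis genes, 0.54 to 0.92 for the S phase genes, 0.98 for Top2a and 0.54 for Ccne1. On deviations from the group means the median r was 0.96 for mitosis and 0.72 for S phase. The difference in r between the lists was not tested.

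D+1 IR 20 stood apart from its group and was singled out after its values were seen. It had the highest value of all 19 aortas for 21 of the 38 genes, 9 of 12 S phase genes, 10 of 23 mitosis genes and 2 of 3 regulators. Its values ranged from 5.09 times the median of the other 18 libraries for Birc5, 3.68 times for Plk1, 3.12 times for Cdk1 and 2.88 times for Aurka, through 1.05 times for Prc1 and 0.96 times for Nusap1, to 0.70 times for Kif20a. In D+1 IR 20 the ratio of Birc5 to Kif20a CPM was 9.43, against 0.651 to 2.33 in the other D+1 IR libraries, 0.542 to 2.98 in D-3 IR and 0.558 to 2.84 in controls. The mitosis genes thus did not stand at 1 common multiple in this aorta. The 4 mitosis genes at the lowest multiples, Kif20a, Nusap1, Prc1 and Bub1, were also the 4 of smallest p in D+1 IR against D-3 IR, a comparison that includes this library.

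**Figure D5:**
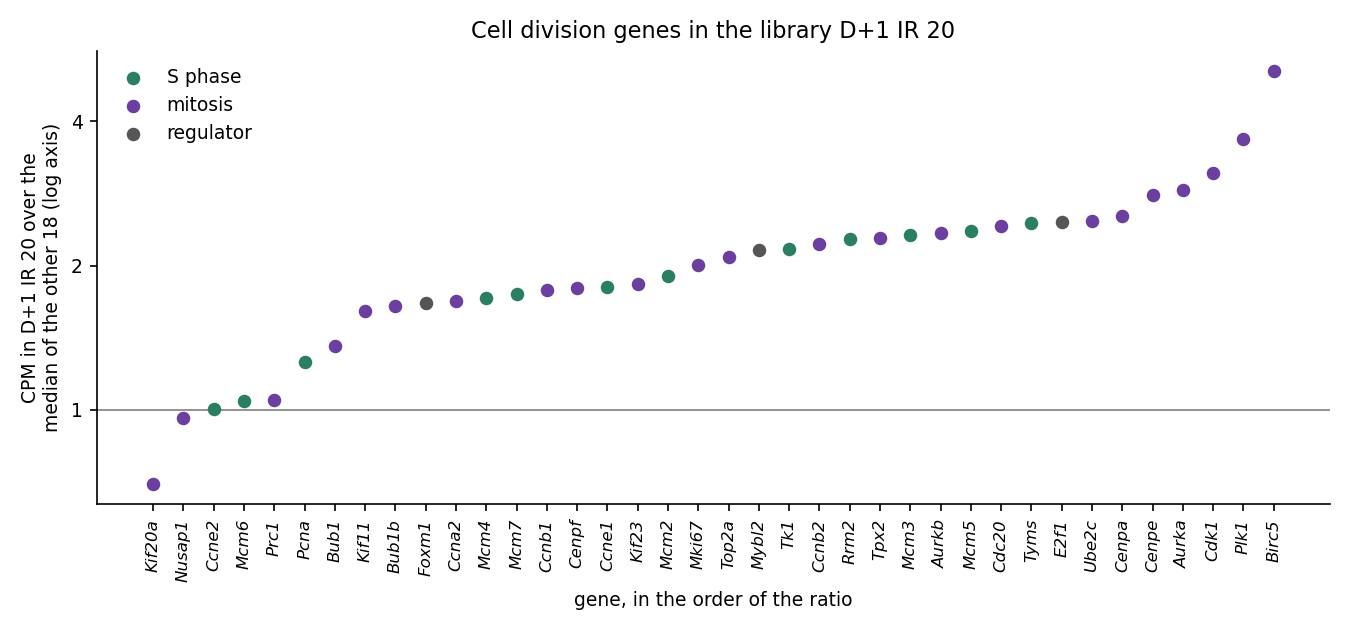
CPM in D+1 IR 20 divided by the median of the other 18 libraries (log axis) for the 38 genes, coloured by list. Birc5 stands highest at 5.09 and Kif20a lowest at 0.70.

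The labelled tissue was present in every library, with all 7 smooth muscle markers above 0. Their summed level was 1510, 7972 and 18008 CPM at the lowest, median and highest in D+1 IR, 10852, 16181 and 28190 CPM in D-3 IR aortas and 6366, 15020 and 33434 CPM in controls. The 8 macrophage markers, all above 0 in every library, summed to 339, 470 and 2829 CPM in D+1 IR, 191, 492 and 876 CPM in D-3 IR aortas and 151, 349 and 1035 CPM in controls, and the 2829 CPM were those of D+1 IR 20. Brown adipocyte markers, 4 of 4 above 0 in every library, summed to 650, 5189 and 7218 CPM in D+1 IR, 338, 1672 and 3401 CPM in D-3 IR aortas and 170, 982 and 4865 CPM in controls. The 8 erythroid markers, of which all were above 0 in every D+1 IR and D-3 IR library and 5 in every control, summed to 249, 433 and 1604 CPM in D+1 IR, 621, 3740 and 10445 CPM in D-3 IR aortas and 88.4, 3836 and 6994 CPM in controls. The erythroid medians were thus lowest in D+1 IR. So were those of the smooth muscle markers and of the S phase and mitosis genes described by library. The macrophage and brown adipocyte medians were not lowest there. Markers of neighbouring tissues also varied between libraries. Sympathetic neuron and adrenal markers summed to 1.03 to 2875 CPM in D+1 IR, 1.30 to 824 CPM in D-3 IR and 2.13 to 3409 CPM in controls, highest in control 8. Skeletal muscle markers reached 643, 6211 and 547 CPM in these groups, and white adipocyte markers 3356, 1749 and 2143 CPM. In the same order, B cell markers reached 236, 382 and 13.8 CPM and T and NK cell markers 94.1, 183 and 5.45 CPM. Neutrophil markers reached 90.6, 94.6 and 887 CPM. In D+1 IR 1 and 3 the smooth muscle sums, 3570 and 1510 CPM, lay below the brown adipocyte sums. The part of these cell types and tissues in the lower levels of D+1 IR was not tested.

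Over 12 marker lists, the macrophage mean had r = 0.40 with Mki67 over the 19 libraries (permutation p = 0.0886, adjusted p = 0.354) and rho = 0.45 (permutation p = 0.0537), r = 0.35 without the same 2 libraries, and r = 0.55 on deviations from group means (adjusted p = 0.0874). Within D+1 IR the macrophage r was 0.94 and within D-3 IR 0.25, given as descriptions of 7 libraries each. The neutrophil mean had r = 0.50 (permutation p = 0.0272, adjusted p = 0.163) and rho = 0.54 (permutation p = 0.0188). Its r was 0.31 without those 2 libraries, and 0.56 on deviations from group means (permutation test, adjusted p = 0.0874). Within D+1 IR the neutrophil r was 0.83 and within D-3 IR -0.33, also as descriptions. The erythroid mean had r = 0.56 (permutation p = 0.0123, adjusted p = 0.148) and rho = 0.39 (permutation p = 0.102), and r = 0.43 without those 2 libraries. On deviations from group means the erythroid r was 0.39 (permutation test, adjusted p = 0.410). Within D+1 IR it was -0.08 and within D-3 IR -0.44, again as descriptions. No list passed adjustment. The depth was 25839001 to 97083681 counts in genes per library (median 39641963), 67.45% to 78.04% of the reads, and mitochondrial genes took 4.49% to 22.9% of the counts.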

How the data were processed

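Poly(A) RNA of 19 aortas was sequenced, and the paper names a stranded library kit. Per the labels, the authors ran FastQC and used STAR 2.7.9a with GRCm38. They deposited raw counts per gene, with both strands pooled and with each strand alone. Annotation release and sequencing batches are not given in the sources used here. Despite the stranded kit named, the second-strand counts were 49.87% to 50.14% of both, so the counts do not separate the strands. Counts of both strands were used, and overlapping genes on opposite strands cannot be told apart. All 773262 values of the deposited joined table are equal to these counts. Reads in no gene (features such as unmapped or ambiguous) stayed out of library sizes.

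Libraries were compared with edgeR 4.0.16 in R 4.3.3 (TMM factors, default filter on low counts, no-intercept design over the 3 groups, no covariate, two-sided quasi-likelihood F-tests, Benjamini-Hochberg adjustment at 0.05 over 17617 genes). Log2 CPM used a prior count of 2. Coordinates and exon lengths came from GENCODE M21 (GRCm38) and promoters from RefSeq. Permutation tests (100000 resamples), promoter scans and list means were run in Python 3.11.15. The correlations of Mki67 with all other genes were added after the data were seen. The fits were tested on simulated data. The members and lists were chosen with earlier results of these data known.

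Fold changes are given for the 3 S phase and 5 mitosis genes of smallest p in each comparison and the regulators, values by library for the 2 S phase and 3 mitosis genes of smallest p in D+1 IR against D-3 IR and for Mki67, Top2a, Pcna and Mcm2, and up to 3 genes of each other list with Cdkn1a. Birc5, Plk1, Ccne1, Pcna and Mcm2 were added to the fold changes after their values were seen. Alternatives were DESeq2 1.42.0, voom of limma 3.58.1 with sample quality weights, other normalization factors and filters, fits of only the groups compared, second-strand counts, fits leaving out 1 library in turn, and a fit leaving out D+1 IR libraries 1, 2 and 3 together.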

Additional observations from a re-analysis of the deposited data

Results flagged for a closer look

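Each member, both list means and their difference were looked at in each group for a library far from the rest by Dixon's criterion at 95%. Members were taken as CPM without logarithm. Chance meets the criterion in about 1 of 20 groups where values are normally distributed, which was not tested for these CPM. It was met in 28 of 123 groups, 19 times by D+1 IR 20 and 9 times by D-3 IR 13, each time as the highest value of its group. All 28 were values of single genes, and neither a list mean nor the difference met it. The genes follow each other over the libraries, so these are not 28 independent events.

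In D+1 IR 20 the S phase genes concerned were Mcm2 (22.5 CPM), Mcm3 (36.6 CPM), Mcm7 (34.3 CPM), Tyms (21.9 CPM) and Tk1 (23.3 CPM), with the regulator E2f1 (24.7 CPM). The mitotic kinases and cyclin-dependent kinase were Cdk1 (35.3 CPM), Aurka (17.7 CPM), Aurkb (13.5 CPM) and Plk1 (25.9 CPM), with Birc5 (34.1 CPM). The centromere and spindle genes were Cenpa (30.1 CPM), Cenpe (15.7 CPM), Cenpf (14.3 CPM), Kif23 (14.9 CPM) and Tpx2 (38.7 CPM). Top2a (57.6 CPM), Ube2c (32.3 CPM) and Cdc20 (32.4 CPM) completed them.

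In D-3 IR 13 no S phase gene met the criterion. The mitosis genes were Mki67 (70.8 CPM), Top2a (74.6 CPM), Bub1b (17.6 CPM), Aurkb (12.5 CPM), Cenpe (12.1 CPM), Kif11 (21.7 CPM), Kif23 (17.9 CPM) and Nusap1 (14.4 CPM), and the regulator was Foxm1 (23.8 CPM). Cenpe, Top2a, Aurkb and Kif23 met it in both groups.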

How the results depend on the processing

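No paired analysis was possible because each aorta gave a single library and no replicate number is shared between groups. In edgeR no member passed adjustment under any alternative, and voom called 16 in D+1 IR against D-3 IR. The cause of the values below was not tested. The members at an unadjusted p under 0.05 in D+1 IR against D-3 IR numbered 10, where 2018 of 17617 genes were in either direction. By library size alone they numbered 6 (1965 of 17617 genes), and in voom 32, where 5350 of 17617 genes were. Without the D+1 IR libraries 1, 2 and 3 they numbered 1 (618 of 17619 genes). Without 1 library they numbered 4 to 33 (4 without D-3 IR 13, 6 without D+1 IR 3 or 19, 33 without D+1 IR 20). In D+1 IR against control they numbered 3, where 1253 of 17617 genes were in either direction. A fit of only these groups gave 0 (886 of 16812 genes) and second-strand counts 1 (1309 of 17491 genes). Without the D+1 IR libraries 1, 2 and 3 there were 0 (268 of 17619 genes). Without 1 library there were 0 to 25 (0 without control 6 or 9, 1 without D+1 IR 2 or 19, 7 without control 4, 11 without control 8, 25 without D+1 IR 20). Among the 3 groups they numbered 5, where 1171 of 17617 genes were. Library size alone gave 2 (1152 genes), voom 19 (2978 genes) and DESeq2's size factors 3 (1249 genes), each of 17617 genes. Second-strand counts gave 3 (1248 of 17491 genes). Without the D+1 IR libraries 1, 2 and 3 there were 0 (304 of 17619 genes). Without 1 library there were 1 to 24 (2 without control 5, D-3 IR 14 or D-3 IR 16, and 3 without control 6, control 9, D-3 IR 11, D+1 IR 1 or D+1 IR 17). The mitosis minus S phase difference was -0.47 in D+1 IR and 0.32 in D-3 IR on log2 sums of CPM, in which abundant genes weigh more. Fold changes that changed sign were those of E2f1 in D+1 IR against control (0.045 by library size alone, 0.20 without the D+1 IR libraries 1, 2 and 3, -0.48 to 0.035 without 1 library), Mybl2 in D+1 IR against control (-0.73 to 0.029), Cdkn1a in D+1 IR against D-3 IR (-0.11 to 0.17) and, in D-3 IR against control, Cenpf (-0.0056 to 0.65), Kif11 (-0.021 to 0.55), Mybl2 (-0.024 to 0.57) and Foxm1 (-0.064 to 0.66). The r of Mki67 with marker lists changed sign for smooth muscle (-0.11 on deviations from group means), fibroblast (-0.020 without the D+1 IR libraries 1, 2 and 3), T and NK cells (0.043 on deviations, 0.17 without those libraries), B cells (-0.018 without the 2 farthest libraries) and skeletal muscle (-0.0065 without the 2 farthest, -0.017 on deviations).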
